A study of Mus musculus with 17 samples.

Results

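The p24 proteins and the L-type lectins are membrane receptors that select folded cargo in the endoplasmic reticulum (ER) for transport to the Golgi. Their mRNAs were followed here through 10 genes, taken by symbol from the 55416 gene IDs counted in each library. These were 8 p24 genes (Tmed1, Tmed2, Tmed3, Tmed4, Tmed5, Tmed7, Tmed9 and Tmed10) and the 2 lectins Lman1 and Lman2, and all 10 had an ID and passed the filter on low counts in every fit. All libraries came from the mouse embryonic stem cell line E14Tg2a.4 with Rpl31, a protein of the large ribosomal subunit, tagged with FLAG, a TEV protease site and an AviTag (Rpl31-FTA), the last being the peptide that a biotin ligase modifies. Biotin was placed on tagged ribosomes at the ER with the method called ALIBi, those ribosomes were captured, and poly(A) RNA from them was sequenced next to whole-cell RNA set aside from the same lysate. Cells had received Nmd3 siRNA, Gnl3 siRNA or scramble siRNA, and every group carried the same tagged line. The 17 libraries were ER ribosome-bound RNA of Nmd3 siRNA (replicates 1 to 3), Gnl3 siRNA (1 to 3) and scramble siRNA (2 and 3), and whole-cell RNA of each siRNA (1 to 3). They are biological replicates per the labels.

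The p24 proteins cross the membrane once, with a lumenal domain that meets cargo and a short cytosolic tail that binds the COPII and COPI coats. They work as mixed oligomers drawn from the alpha, beta, gamma and delta subfamilies, are best known for the export of proteins anchored by glycosylphosphatidylinositol (GPI), and return from the Golgi in COPI vesicles. Lman1 (ERGIC-53) and Lman2 (VIP36) bind high-mannose glycans through a lectin domain, and in humans LMAN1 with its partner MCFD2 carries coagulation factors V and VIII. All of these receptors begin with a cleaved signal peptide, so the ribosomes that translate them are brought to the ER membrane early in synthesis. Nmd3 is the export adaptor of the large ribosomal subunit, and Gnl3 (nucleostemin) is a nucleolar GTPase abundant in stem cells.

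The start of each coding sequence is where a signal peptide is encoded. The first 25 codons of 6 members are shown because they span the highest ER to whole-cell ratios (Tmed1, Tmed9, Tmed3), an intermediate one (Tmed10), a lectin (Lman2) and the one gene that went the other way (Tmed5). Capitals mark a T at the second position of a codon, and every such codon encodes a hydrophobic residue. Each runs 5′ to 3′ on its own strand, within 1 exon, from the GENCODE M21 principal transcript on GRCm38.
Tmed1 (chr9:21510102-21510176, minus strand): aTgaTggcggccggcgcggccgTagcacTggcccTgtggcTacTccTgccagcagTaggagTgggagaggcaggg
Tmed9 (chr13:55593174-55593248, plus strand): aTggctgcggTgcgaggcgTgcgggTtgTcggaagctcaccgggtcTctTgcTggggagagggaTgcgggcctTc
Tmed3 (chr9:89704851-89704925, minus strand): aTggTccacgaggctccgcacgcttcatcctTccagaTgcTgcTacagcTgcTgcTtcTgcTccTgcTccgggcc
Tmed10 (chr12:85374591-85374665, minus strand): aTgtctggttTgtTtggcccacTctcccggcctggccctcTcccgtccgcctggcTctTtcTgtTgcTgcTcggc
Lman2 (chr13:55362515-55362589, minus strand): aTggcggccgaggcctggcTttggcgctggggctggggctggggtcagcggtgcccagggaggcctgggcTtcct
Tmed5 (chr5:108132350-108132424, minus strand): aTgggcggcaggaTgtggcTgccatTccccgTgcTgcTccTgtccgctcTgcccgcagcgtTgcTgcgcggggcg

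Such codons numbered 13 of 25 in Tmed3, 11 in Tmed5 and in Tmed10, 10 in Tmed1 and in Tmed9, and 3 in Lman2. Among the members not shown there were 12 in Tmed2 and in Tmed4, 9 in Lman1 and 5 in Tmed7. The median over 21596 protein-coding genes was 7. In Tmed3 an unbroken run of 7 of them, and in Tmed10 a run of 6, lies near the end of the window, and a run of 5 or more was found in 8.3% of genes. Tmed5 opened with as many such codons as Tmed10, and the ER to whole-cell differences of these genes had opposite signs (below). A relation between the count and the ratio was not tested. In Lman2 the window holds few of them. A count of these letters is a description of the window and says nothing about where a protein is targeted.

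Depth ranged from 15198736 to 29904256 gene counts per library. Nmd3 mRNA stood at 24.1 to 25.2 CPM (counts scaled to a common library total) on ER ribosomes with Nmd3 siRNA, against 120.0 to 124 CPM with scramble siRNA, and Gnl3 mRNA at 26.9 to 31.6 CPM with Gnl3 siRNA, against 170.0 and 177 CPM with scramble siRNA. The submitters' labels exclude 2 whole-cell libraries as outliers, Nmd3 siRNA replicate 2 and Gnl3 siRNA replicate 3. Their correlation with the other whole-cell libraries was 0.896 to 0.910 and 0.924 to 0.934, against 0.992 to 0.996 among the 7 others (log2 CPM), and the comparisons below use the 15 libraries without them. ER ribosome-bound replicate 2 of Nmd3 siRNA also stood apart, with a chi-square per gene of 10.8 and 13.1 against its 2 partners, which differed from each other by 3.57. The 2 kept whole-cell libraries of Nmd3 siRNA differed by as much, 10.8, and had 1.15% and 1.92% mitochondrial counts. All other pairs of kept replicates were at or under 4.66. The 8 pluripotent stem cell markers summed to 8405 to 9420 CPM in ER ribosome-bound libraries and 5992 to 6912 CPM in whole-cell libraries, and the 7 primitive endoderm markers to 27.4 to 45.8 CPM and 52.7 to 61.7 CPM. The 7 fibroblast or feeder markers summed to 32.6 to 39.7 CPM in ER ribosome-bound libraries and 12.6 to 18.3 CPM in whole-cell libraries. The part of these 3 lists in the results was not tested.

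Most of the family was richer on ER ribosomes than in the whole cell. A CPM value is a share of a library, so an ER to whole-cell ratio says how a gene's share on ER-proximal ribosomes compared with its share of all cellular mRNA. Of the 10 members, 9 were higher on ER ribosomes and Tmed5 was lower, with each of the 3 siRNAs (edgeR quasi-likelihood test, Benjamini-Hochberg adjusted p under 0.05). The background was wide, and the share of genes called higher fell with transcript length (below). Of 18271 genes tested, 24.5% were called higher and 25.6% lower with Nmd3 siRNA, 23.3% and 24.9% with Gnl3 siRNA, and 25.1% and 25.3% with scramble siRNA. Counting both directions, 50.1% (Nmd3), 48.1% (Gnl3) and 50.3% (scramble) of genes were called. The members' median log2 ratio was 1.19 with Nmd3 siRNA, 1.04 with Gnl3 siRNA and 0.99 with scramble siRNA, beside 0.01, 0.02 and 0.02 over all genes tested.

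**Figure D1:**
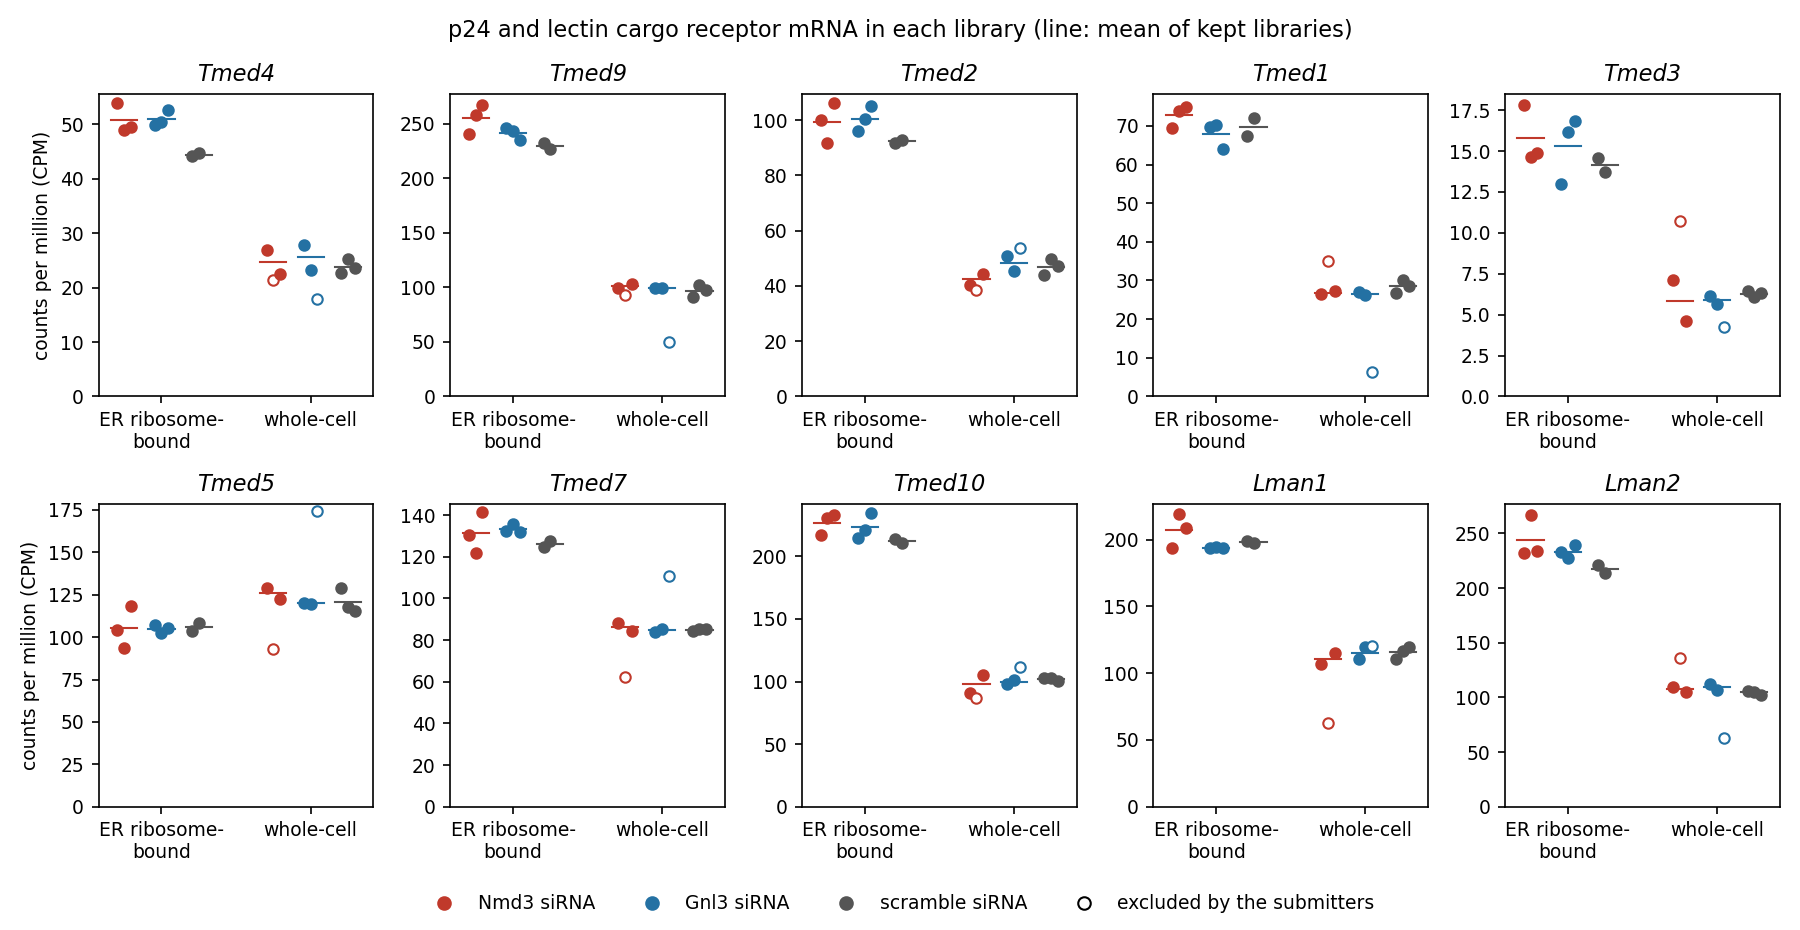
Level of each member in every library, in CPM, with the 3 ER ribosome-bound groups to the left of the 3 whole-cell groups; filled points are kept libraries, open points the 2 libraries the submitters excluded, and lines the mean of the kept ones. For 9 members all 8 ER ribosome-bound points lie above all 7 kept whole-cell points, as for 19.4% of all genes tested, and for Tmed5 the order within each siRNA is reversed.

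In the alpha subfamily, Tmed9 was among the most abundant members and had one of the steepest ratios. Tmed9, which in human cells holds a misfolded mucin in transport vesicles, measured 232 and 227 CPM on ER ribosomes with scramble siRNA, against 91.2, 102 and 97.3 CPM in whole-cell RNA. No library of one fraction came near any library of the other. Its log2 ratio was 1.22 ± 0.06 with scramble siRNA (SE, adjusted p = 4.0e-19), which is 2.33-fold with a 95% interval of 2.15 to 2.53. With Nmd3 siRNA the log2 ratio was 1.33 and with Gnl3 siRNA 1.24. Tmed4, the other alpha member, measured 44.2 and 44.7 CPM on ER ribosomes, against 22.7, 25.3 and 23.6 CPM in whole-cell RNA with scramble siRNA. Its fractions were also separate, at 0.87 ± 0.08 (adjusted p = 4.5e-11), a smaller log2 ratio than that of Tmed9.

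The beta and delta subfamilies have 1 member each in the mouse, and Tmed2 and Tmed10 pair with each other at the core of p24 complexes. Tmed10 measured 214 and 211 CPM on ER ribosomes with scramble siRNA, against 103, 103 and 100.2 CPM in whole-cell RNA. Tmed2 was less abundant in counts, at 91.8 and 92.9 CPM against 44.0, 49.9 and 47.1 CPM. Both genes thus had about the same relative gap, with log2 ratios of 1.04 ± 0.06 for Tmed10 (adjusted p = 1.3e-16) and 0.95 ± 0.07 for Tmed2 (adjusted p = 1.1e-13). With Nmd3 siRNA the log2 ratios were 1.20 for Tmed10 and 1.22 for Tmed2, and with Gnl3 siRNA 1.12 and 1.02.

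The gamma subfamily held both ends of the family's range. Tmed1, first described through its binding to an interleukin receptor family member, measured 67.3 and 72.0 CPM on ER ribosomes with scramble siRNA, against 26.7, 30.2 and 28.5 CPM in whole-cell RNA. Its log2 ratio of 1.27 ± 0.07 (adjusted p = 7.6e-17), or 2.40-fold, was the highest of the 10 with that siRNA. Tmed3 was the scarcest member, with 14.6 and 13.7 CPM on ER ribosomes against 6.46, 6.06 and 6.33 CPM in whole-cell RNA. Its libraries were as cleanly separated, but with fewer counts its log2 ratio of 1.15 had the widest error of the family, ± 0.15 (adjusted p = 2.5e-08). With Nmd3 siRNA its log2 ratio was 1.43 ± 0.16 (adjusted p = 8.4e-10), and it was not called once the 2 excluded libraries were added (0.84, adjusted p = 0.068). Tmed7, a gamma member that in human cells helps the receptor TLR4 reach the surface, had a smaller gap, with 125 and 127 CPM on ER ribosomes against 84.5, 85.1 and 85.5 CPM in whole-cell RNA. The log2 ratio of Tmed7 was 0.54 ± 0.06 (adjusted p = 6.9e-10), the lowest of the 9 that were higher.

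Tmed5, the remaining gamma member, was the exception. It measured 104, 93.7 and 118 CPM on ER ribosomes with Nmd3 siRNA, against 129 and 122 CPM in whole-cell RNA. With Gnl3 siRNA it measured 107, 102 and 105 CPM on ER ribosomes, against 120.3 and 119.6 CPM in whole-cell RNA. With scramble siRNA it measured 103 and 108 CPM on ER ribosomes, against 129, 118 and 115 CPM in whole-cell RNA. Within each siRNA every ER ribosome-bound library was below every whole-cell library, as for 30.5% (Nmd3), 30.2% (Gnl3) and 31.5% (scramble) of all genes tested, although the highest ER value (Nmd3 siRNA replicate 3) exceeded the lowest whole-cell values of scramble siRNA. The log2 ratios were -0.26 ± 0.07 with Nmd3 siRNA (adjusted p = 0.0012), -0.24 ± 0.07 with Gnl3 siRNA (adjusted p = 0.0037) and -0.21 ± 0.07 with scramble siRNA (adjusted p = 0.0085). On a linear scale the scramble value is 0.863-fold, with a 95% interval of 0.784 to 0.949. The call with scramble siRNA was lost without whole-cell replicate 1 (log2 ratio -0.17, adjusted p = 0.066), without ER ribosome-bound replicate 2 (-0.20, adjusted p = 0.074) and with the 2 excluded libraries added (-0.22, adjusted p = 0.49). Adding them also ended the call of Tmed5 with Nmd3 siRNA (-0.27, adjusted p = 0.30).

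The lectins followed the larger part of the p24 family. Lman2 measured 221 and 214 CPM on ER ribosomes with scramble siRNA, against 106, 105 and 102 CPM in whole-cell RNA. Lman1 measured 199 and 197 CPM on ER ribosomes, against 111, 116 and 119 CPM in whole-cell RNA. Both were fully separated, with log2 ratios of 1.03 ± 0.06 for Lman2 (adjusted p = 6.5e-17) and 0.75 ± 0.06 for Lman1 (adjusted p = 3.9e-13). Mcfd2, the soluble partner of Lman1, had a log2 ratio of 1.03 ± 0.08 (adjusted p = 5.0e-14).

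**Figure D2:**
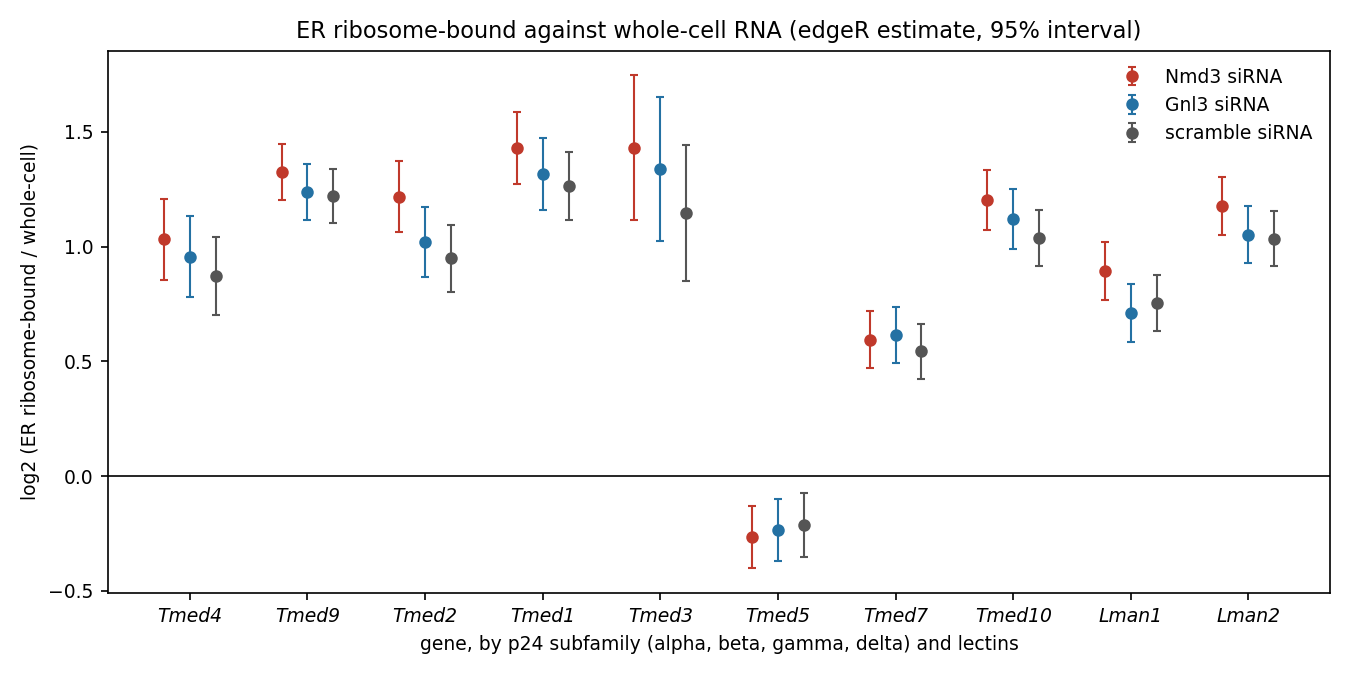
Log2 ratio of ER ribosome-bound to whole-cell RNA for each member with Nmd3, Gnl3 and scramble siRNA, as points with 95% intervals from the edgeR fit of 15 libraries. The intervals of 9 members lie above 0 with all 3 siRNAs, Tmed5 lies below 0, and Tmed7 has the lowest of the positive values.

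The order of the members was much the same in each lysate. In 6 lysates both fractions were kept, and the log2 ratio of the 2 libraries could be taken directly from CPM. Tmed5 had the lowest ratio of the 10 in all 6, from -0.31 to -0.05 with a median of -0.18. Tmed7 came next in all 6, from 0.55 to 0.74. The highest ranges were those of Tmed1 (1.16 to 1.46), Tmed9 (1.19 to 1.37) and Tmed3 (1.09 to 1.70). Tmed5 and Tmed7 were singled out after their values were seen, so their place in the order is given without a test. Among all genes tested with scramble siRNA, Tmed1 lay at percentile 98.2, Tmed9 at 97.9 and Tmed3 at 97.2, Tmed7 at 82.6 and Tmed5 at 34.5. At or above percentile 95 were 6 members with Nmd3 siRNA, 5 with Gnl3 siRNA and 5 with scramble siRNA.

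Levels between genes can be set side by side only per length. Per kilobase of principal transcript, Tmed9 (162 ± 2.53 CPM per kb, SD, n = 2), Tmed10 (143 ± 1.65) and Tmed7 (93.5 ± 1.41) led on ER ribosomes with scramble siRNA. Tmed1 (50.6 ± 2.40) and Lman2 (50.4 ± 1.20) followed with overlapping libraries, then Tmed2 (44.5), Lman1 (42.4), Tmed5 (27.9), Tmed4 (22.2) and Tmed3 (10.5). In whole-cell RNA Tmed5 was in place 4, at 31.8 ± 1.92 CPM per kb (SD, n = 3), above both lectins and Tmed2. Tmed10 (68.7) and Tmed9 (68.2) overlapped at the top there, and from place 5 down Lman1, Lman2, Tmed2 and Tmed1 followed, each overlapping with its neighbour among these 4. With the length of all annotated exons in place of the principal transcript, Tmed9 was first and Tmed3 last in both fractions. Tmed7 was then in place 8 on ER ribosomes and in place 9 in whole-cell RNA. In whole-cell RNA Tmed5 was in place 5 by that length (15.7 CPM per kb), below Tmed2 (18.6) and still above both lectins. Tmed1 moved to place 2 and Tmed10 to place 4 there, so the order between genes depended on the length used.

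The ER to whole-cell ratio varied with transcript length over the whole transcriptome. Across 14243 protein-coding genes the correlation of the log2 ratio with log transcript length was -0.46, and genes are not independent replicates. With log coding length it was -0.48. The median log2 ratio with scramble siRNA was 0.30 for transcripts of 1 to 2 kb, -0.06 for 3 to 4 kb and -0.20 for 4 to 5 kb. The share of these genes called higher was 49.3% at 1 to 2 kb and 31.0% at 2 to 3 kb. It was 19.6% at 3 to 4 kb and 15.2% at 4 to 5 kb. Tmed5 has a principal transcript of 3800 nt. Its log2 ratio of -0.21 (95% interval -0.35 to -0.08) lies below the median of its length class. Lman2 (4315 nt, 1.03) and Lman1 (4676 nt, 0.75) are longer and far above theirs. Tmed7 (1348 nt, 0.54) is nearly as short as Tmed3 (1346 nt, 1.15), with a smaller ratio. The coding sequence of Tmed5, 687 nt, is like that of Tmed7 (672 nt) and Tmed1 (681 nt), and the rest of its length is untranslated. Whether length contributes to the difference between Tmed5 and the other members was not tested.

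**Figure D3:**
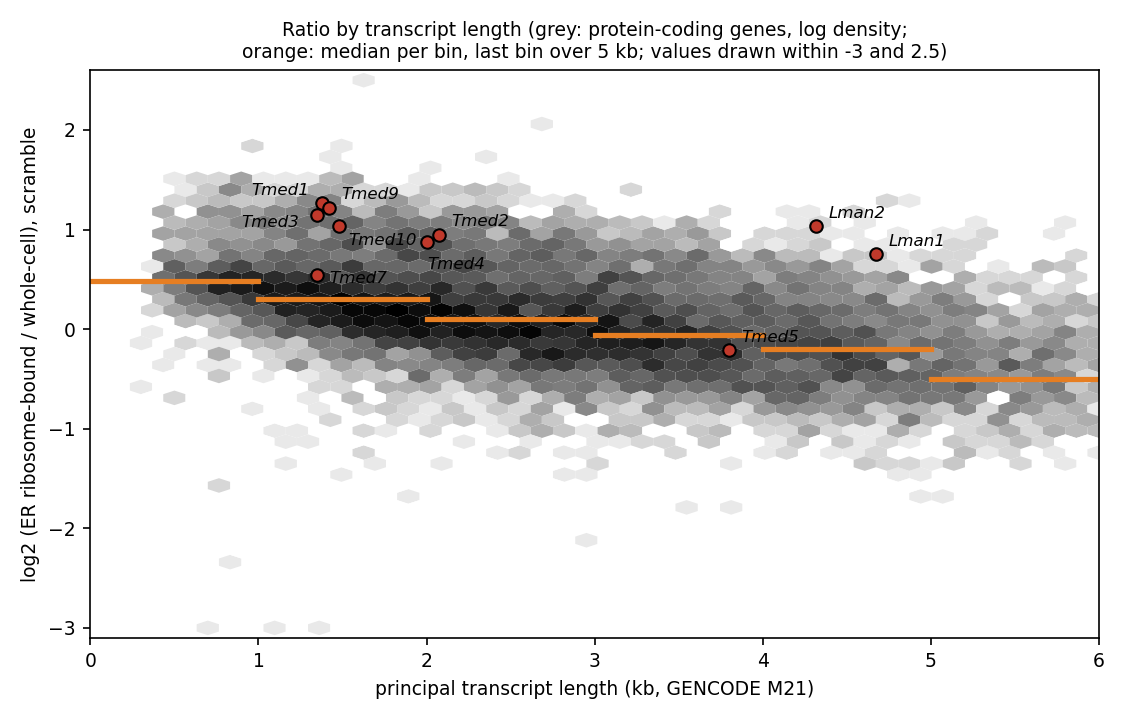
Log2 ratio of ER ribosome-bound to whole-cell RNA with scramble siRNA against the principal transcript's length in kb; grey hexagons are protein-coding genes, orange lines the median per length bin and red points the members. Tmed5 lies below the line of its bin, while the other 9 members lie above theirs.

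Some members share sequence or position with other genes. On the opposite strand, Tmed5 overlaps Mtf2 by 395 bases and Tmed1 overlaps Dnm2 by 207 bases. Mtf2 ranged from 320 to 388 CPM in ER ribosome-bound libraries and from 416 to 477 CPM in whole-cell libraries, the same direction as Tmed5. The library kit keeps strand, but the strand setting of the counting is not given in the sources used here, so reads of such partners may not have been told apart and the Tmed5 value is uncertain to that extent. Dnm2 ranged from 68.7 to 75.3 CPM in ER ribosome-bound libraries and from 61.5 to 75.8 CPM in whole-cell libraries. Tmed7 overlaps Ticam2 by 838 bases on the same strand, and Ticam2 reached at most 4.22 CPM. Near copies are Tmed10-ps for Tmed10 (at most 3.97 CPM) and Gm10698 for Tmed2 (at most 3.21 CPM). Tmed5 shares a stretch of 103 to 145 bases, at most 3.8% of its transcript and at 97% identity or more on either strand, with 21 annotated genes, of which the highest reached 139 CPM. How reads from such stretches were assigned is not given in the sources used here.

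Of 5 relatives outside the family list, Tmed6, Tmed11 and Lman1l had at most 0.306 CPM in any library. Tmed8, which carries the family's name, ranged from 26.4 to 34.3 CPM on ER ribosomes and from 46.7 to 55.2 CPM in whole-cell RNA. Its log2 ratio with scramble siRNA was -0.72 ± 0.09 (adjusted p = 8.9e-09), lower than that of Tmed5. Lman2l, a lectin close to Lman2, had a log2 ratio of 0.52 ± 0.11 (adjusted p = 1.2e-04).

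Other genes of the early secretory pathway are given by list. Of all genes tested with scramble siRNA, 25.1% were called higher and 25.3% lower. The share called higher fell with transcript length (above), and the lists were not matched for length. Among 20 other membrane cargo receptors and recycling proteins of the ER and the ER-Golgi intermediate compartment, 16 were higher on ER ribosomes and 1 was lower with scramble siRNA, with a median log2 ratio of 0.94. The highest were Yif1b (1.31) and Yif1a (1.15), which cycle between ER and Golgi, and Kdelr3 (1.05), a receptor that returns ER proteins. The lower one, named after its value was seen, was Mia3, the collagen export receptor (-0.36). It was not called with Nmd3 siRNA (-0.10) or Gnl3 siRNA (-0.14), and 0 of this list were lower with the 2 excluded libraries added. The COPII coat and its ER exit site factors gave 2 higher and 8 lower of 13 tested, with a median of -0.54. Sec16a, the scaffold of ER exit sites, was lower (-1.32), and both small GTPases of the coat, Sar1b (1.15) and Sar1a (0.87), were higher. The COPI coat and its Arf machinery gave 7 higher and 6 lower of 17 (median 0.16), among them Gbf1 (-1.32), the exchange factor of Arf proteins, Arf5 (1.12) and Copa (-0.79), a coat subunit. With those libraries added, 4 COPII genes were lower, and 2 COPI genes were higher and 1 lower.

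Of 10 SNAREs of ER to Golgi transport, 4 were higher and 1 was lower with scramble siRNA, with a median log2 ratio of 0.21. The share of all genes called in either direction was 50.3%. Use1, a SNARE of return to the ER, had the largest change (0.41). No SNARE was called with the 2 excluded libraries added. Leaving out scramble ER ribosome-bound replicate 2, or replicate 3, gave 2 higher and 0 lower. The lower call, on Gosr1 (named after its value was seen), was also lost without scramble whole-cell replicate 1 and with lysates as a replicate block. Proteins with a GPI anchor, the cargo most closely tied to p24 function, gave 15 higher and 0 lower of 16 tested with a median of 1.05, led by Ly6e (1.41), Bst2 (1.37) and Efna4 (1.31). Targets of the unfolded protein response, which raises early secretory genes under ER stress, gave 14 higher and 0 lower of 16 with a median of 0.62, led by Sdf2l1 (1.33), Creld2 (1.28) and Manf (1.13).

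**Figure D4:**
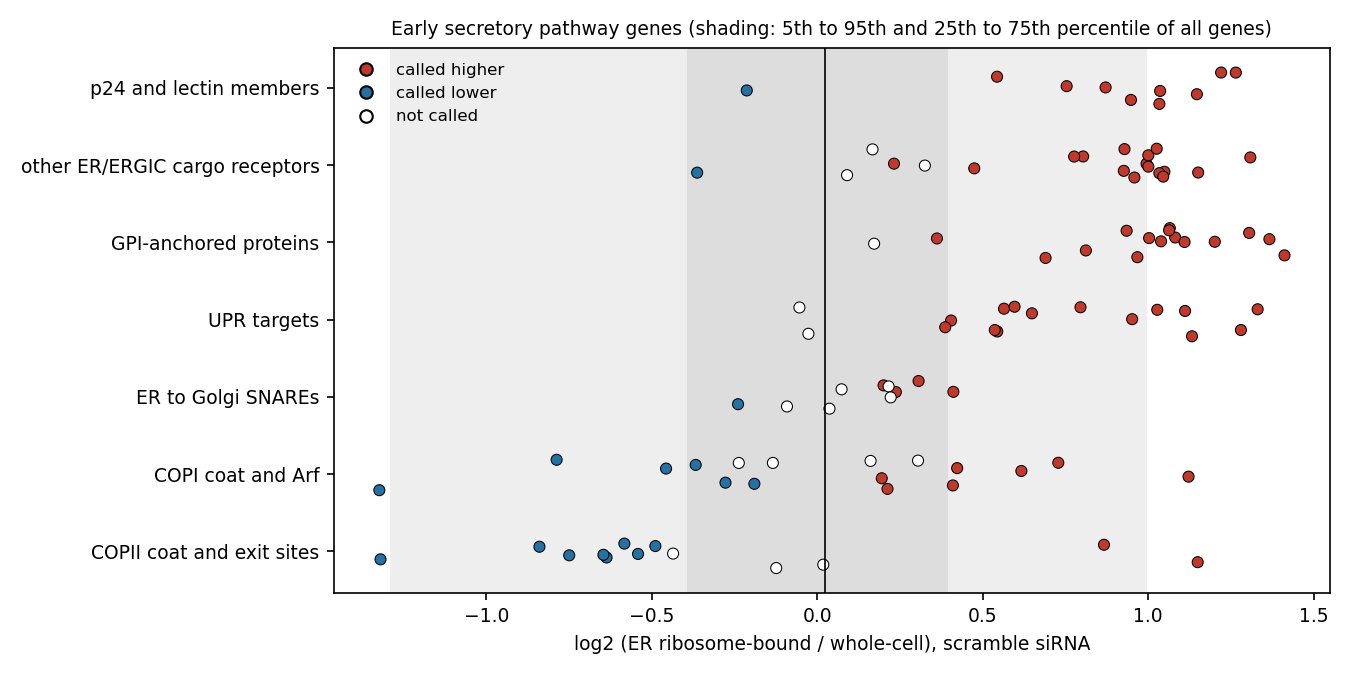
Log2 ratio of ER ribosome-bound to whole-cell RNA with scramble siRNA for the members and 6 lists of the early secretory pathway, 1 point per gene tested, coloured by call; the line is the median of all 18271 genes and the shading their 25th to 75th and 5th to 95th percentiles. Members, other cargo receptors and GPI-anchored proteins sit mostly to the right, and COPII coat and exit site genes mostly to the left.

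Over the 15 libraries, the genes whose log2 CPM was most like the members' mean profile were Ndufb5, a complex I subunit (Pearson r = 0.998 over 16408 genes compared), Tmem50a, Arl6ip5, Surf4 (a cargo receptor) and Arf1 (each 0.997). The profile mostly separates the 2 fractions, and 8.09% of genes reached r of at least 0.95. Tmed5 had r = -0.81 with the same mean, and the 9 other members 0.978 to 0.997. Each member is part of that mean, so these values are no separate test of the ratios above.

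Whether a knockdown changed the ER to whole-cell ratio was tested with an interaction term. No member was called for Nmd3 or for Gnl3 siRNA, and no gene of 18271 was called for either (0%). At an unadjusted p under 0.05 there were 1078 genes (5.90%) for Nmd3 and 649 (3.55%) for Gnl3, and DESeq2 called 2 genes and 0 genes. Tmed2 was the only member under 0.05 before adjustment, with log2 ratios of 1.22 with Nmd3 siRNA and 0.95 with scramble siRNA, a difference of 0.27 ± 0.10 (SE, edgeR adjusted p = 0.80). The 95% intervals of these differences with Nmd3 siRNA ran from -0.25 to 0.72 over the members, the widest being that of Tmed3. With Gnl3 siRNA they ran from -0.25 to 0.63. The interval of Tmed2 with Nmd3 siRNA, 0.06 to 0.48 and not adjusted over genes, lay above 0. The differences were above 0 for 9 of the 10 members with Nmd3 siRNA (52.1% of all genes) and for 8 with Gnl3 siRNA (50.8%). Their medians were 0.15 and 0.06, beside 0.01 and 0.00 over all genes. Medians were 0.13 and 0.05 for the other cargo receptors, and -0.07 and -0.05 for SNAREs of ER to Golgi transport. Both siRNAs were set against the same scramble libraries. Taken over the members, the intervals allow changes of the ratio in either direction, so equal ratios were not shown.

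Within ER ribosome-bound RNA, no member was called for either knockdown. Of 17632 genes tested, 1.17% were called with Nmd3 siRNA and 2.68% with Gnl3 siRNA against scramble siRNA (edgeR, adjusted p under 0.05). In bulk RNA, fewer cells expressing a gene and less RNA per cell cannot be told apart. With Nmd3 siRNA all 10 members had a log2 difference above 0, the highest being 0.20 for Tmed4. That of Tmed5 was 5.0e-05, and it ran from -0.08 to 0.07 over the alternative fits listed below. The members' median was 0.11 beside 0.00 over all genes, of which 50.5% were above 0. Medians of the other lists were 0.14 (unfolded protein response targets), 0.09 (other cargo receptors) and 0.06 (COPI). They were 0.04 for GPI-anchored proteins, 0.01 for COPII and -0.03 for SNAREs. With Gnl3 siRNA 7 of the 10 were above 0, and the median was 0.07 beside 0.00 over all genes, of which 49.5% were above 0. Both comparisons share the 2 scramble libraries.

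Tmed4 measured 53.9, 48.9 and 49.5 CPM on ER ribosomes with Nmd3 siRNA and 49.9, 50.4 and 52.6 CPM with Gnl3 siRNA, against 44.2 and 44.7 CPM with scramble siRNA. All 6 knockdown libraries were above both scramble libraries. The log2 differences were 0.20 ± 0.07 for Nmd3 siRNA (adjusted p = 0.21) and 0.18 ± 0.07 for Gnl3 siRNA (adjusted p = 0.19), and neither was called. Tmed9 measured 240.4, 258 and 267 CPM with Nmd3 siRNA, against 232 and 227 CPM with scramble siRNA, a log2 difference of 0.16 ± 0.05 (adjusted p = 0.13). Lman2 measured 232, 267 and 234 CPM with Nmd3 siRNA, against 221 and 214 CPM with scramble siRNA, a difference of 0.18 ± 0.06 (adjusted p = 0.20). Both sets of libraries were separate, but not by enough to be called over all genes. Without Nmd3 siRNA replicate 1, Tmed9 was called (0.21, adjusted p = 0.034), and without the filter on low counts Lman2 was (0.17, adjusted p = 0.044).

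Libraries of the 2 siRNAs did not overlap for 5 members with Nmd3 siRNA, all above scramble siRNA, and for 7 with Gnl3 siRNA, 6 above it and Lman1 below it. Of all 17632 genes tested, libraries did not overlap for 27.2% with Nmd3 siRNA and 35.5% with Gnl3 siRNA. Lman1 measured 193.5, 194.3 and 193.6 CPM with Gnl3 siRNA, against 199 and 197 CPM with scramble siRNA, a log2 difference of -0.04 ± 0.05 (adjusted p = 0.80). The 95% intervals over the 10 members ran from -0.14 to 0.42 with Nmd3 siRNA and from -0.18 to 0.36 with Gnl3 siRNA.

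In whole-cell RNA no member was called either, and 0.166% of 17490 genes were called with Nmd3 siRNA and 0.812% with Gnl3 siRNA. The members' log2 differences ran from -0.15 to 0.06 with Nmd3 siRNA, where 5 of the 10 were above 0, and from -0.10 to 0.10 with Gnl3 siRNA, where 4 were. Over all genes tested, 49.7% (Nmd3) and 48.7% (Gnl3) were above 0. These Nmd3 siRNA values, and the Nmd3 ratios and interactions above, rest on the pair of kept whole-cell replicates that differed most. Tmed2 measured 40.3 and 44.5 CPM with Nmd3 siRNA, against 44.0, 49.9 and 47.1 CPM with scramble siRNA, and those libraries overlapped (log2 difference -0.15 ± 0.08, adjusted p = 0.55). Tmed5 measured 129 and 122 CPM with Nmd3 siRNA, against 129, 118 and 115 CPM with scramble siRNA, also overlapping (0.05 ± 0.06, adjusted p = 0.82). The 95% intervals ran from -0.48 to 0.25 with Nmd3 siRNA and from -0.45 to 0.31 with Gnl3 siRNA, widest for Tmed3.

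**Figure D5:**
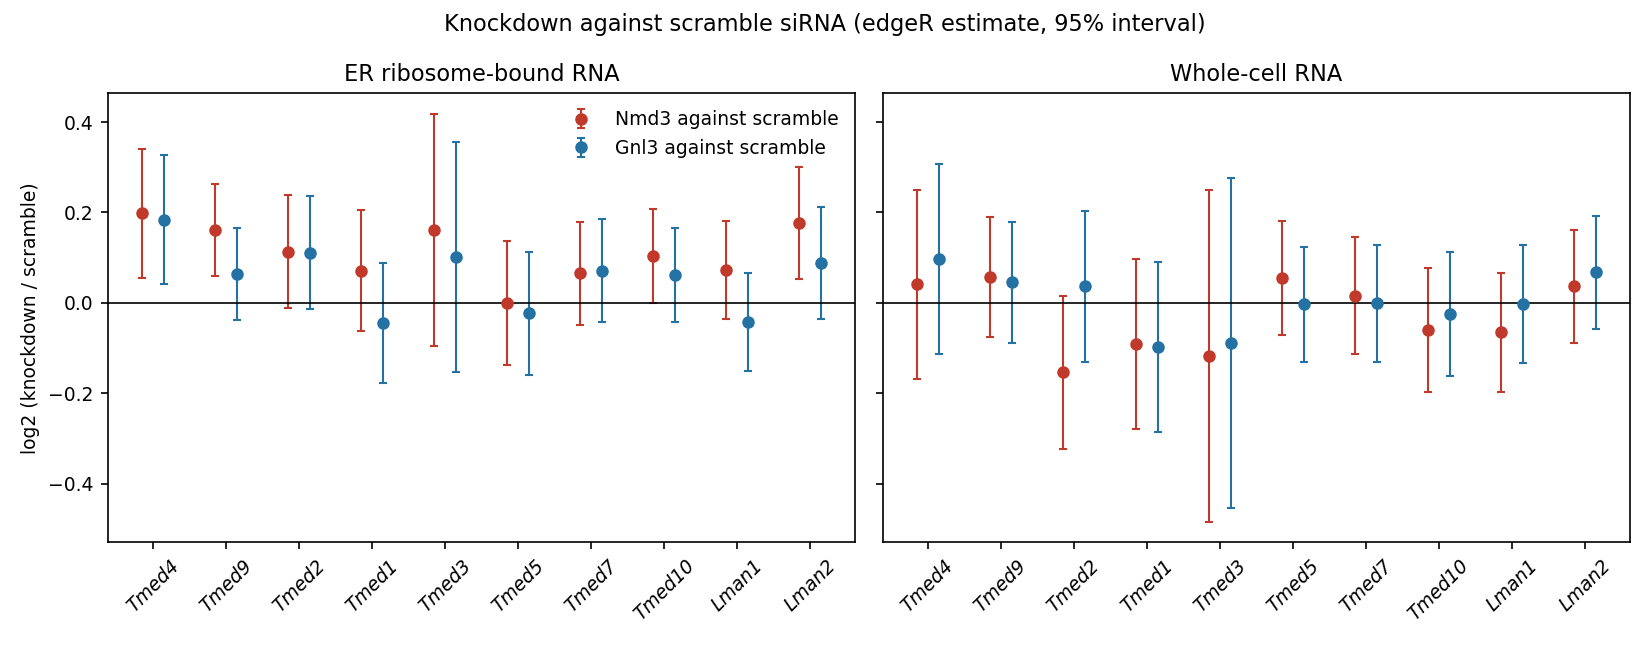
Log2 difference of Nmd3 and of Gnl3 siRNA against scramble siRNA for each member, as points with 95% intervals, in ER ribosome-bound RNA (left panel) and whole-cell RNA (right panel). No member passed the adjusted threshold; on ER ribosomes Tmed4 lies highest with both siRNAs, at 0.20 and 0.18.

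Some genes of the surrounding pathway passed in these comparisons. The share of all genes called was 1.17% (Nmd3) and 2.68% (Gnl3) on ER ribosomes, and 0.166% and 0.812% in whole-cell RNA. Cd24a, a GPI-anchored surface protein, was lower with Nmd3 siRNA on ER ribosomes (-0.43 ± 0.06, adjusted p = 3.9e-04) and in whole-cell RNA (-0.39 ± 0.09, adjusted p = 0.047). Ergic1, an ER-Golgi cycling protein, was lower with Nmd3 siRNA in whole-cell RNA (-0.31, adjusted p = 0.049). With Gnl3 siRNA, Bcap29, an ER membrane protein, was lower on ER ribosomes (-0.38, adjusted p = 0.0066) and in whole-cell RNA (-0.44, adjusted p = 0.030). On ER ribosomes Use1 (-0.25) and the GPI-anchored Reck (-0.43) and Alpl (-0.22) were also lower with Gnl3 siRNA. Sec24b, a COPII cargo adaptor (0.27), and the folate receptor Folr1 (0.22) were higher. By list, the Gnl3 siRNA calls on ER ribosomes were 1 of 13 COPII genes, 1 of 20 other cargo receptors and 1 of 10 SNAREs. Of 16 GPI-anchored proteins 1 was higher and 2 were lower, and of 17 COPI genes 0 were called. With the 2 excluded libraries added, 0 genes were called in whole-cell RNA with either siRNA, so the whole-cell calls of Cd24a, Ergic1 and Bcap29 were lost. Of the 8 pluripotent stem cell markers, 0 were higher and 4 lower with Gnl3 siRNA on ER ribosomes, with a median of -0.14. The share of all genes called there in either direction was 2.68%. Of 16 unfolded protein response targets, 0 were called in any of the 4 comparisons.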

How the data were processed

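The deposited files hold raw counts per gene ID. Per the submitters' processing notes, STAR 2.7.9a, HTSeq 0.11.2, DESeq2 and GRCm39 were used; the annotation release and the strand setting of counting are not given in the sources used here. HTSeq's 5 lines that name no gene were left out (the no-feature line was 46.6% to 48.3% of all lines' counts). Symbols and lengths came from GENCODE M21, which named 52083 of the 55416 IDs.

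edgeR 4.0.16 (R 4.3.3; low-count filter, TMM, robust quasi-likelihood) was fitted to 15 libraries for ER ribosome-bound against whole-cell RNA and its interactions with siRNA, to 8 ER ribosome-bound libraries and to 7 whole-cell libraries for the siRNAs. All genes tested entered the Benjamini-Hochberg adjustment (threshold 0.05), and intervals cover 95%. The test was also run on counts simulated with the same spread for every gene. Far fewer genes changed in those counts than between the fractions here, so that run does not vouch for the fraction comparisons. The labels put both fractions in 1 lysate, so replicate numbers pair them; deviations of same-numbered libraries correlated by -0.05 to 0.07. Across siRNAs they share only a number.

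Alternatives were DESeq2 1.42.0, RLE or total scaling, no filter, a replicate block, all 17 libraries, each siRNA alone and leaving out each library. Named were all members, relatives, at most 3 called genes per list with the largest change (Mia3 and Gosr1 were added later), the partner Mcfd2, and the 5 genes most alike in profile. Members and lists were chosen with earlier results of these data known.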

Additional observations from a re-analysis of the deposited data

Results flagged for a closer look

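Each value below comes from 1 of the 2 whole-cell libraries that the submitters excluded and is above every scramble siRNA whole-cell library. In Gnl3 siRNA whole-cell replicate 3, Tmed5 measured 174.6 CPM, against 115 to 129 CPM with scramble siRNA. Tmed7 measured 110.5 CPM in that library, against 84.5 to 85.5 CPM with scramble siRNA. Tmed10 measured 111 CPM against 100.2 to 103 CPM, Tmed2 53.7 CPM against 44.0 to 49.9 CPM, and Lman1 120.4 CPM against 111 to 119 CPM. In Nmd3 siRNA whole-cell replicate 2, Tmed1 measured 35.1 CPM, against 26.7 to 30.2 CPM with scramble siRNA. Tmed3 measured 10.8 CPM there against 6.06 to 6.46 CPM, and Lman2 136 CPM against 102 to 106 CPM. Members moved both ways in these libraries. Tmed1 was at 6.32 CPM and Tmed9 at 50.2 CPM in the Gnl3 siRNA library, and Lman1 at 62.4 CPM in the Nmd3 siRNA library, all below every scramble siRNA whole-cell library. Mitochondrial genes took 6.14% of counts in the Gnl3 siRNA library and 0.769% in the Nmd3 siRNA library, against 1.15% to 2.03% in the 7 others. Their part in these values was not tested.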

How the results depend on the processing

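Of 360 single-member values for ER ribosome-bound against whole-cell RNA under the alternatives, 355 kept direction and call. The 5 others are the 4 lost calls of Tmed5 given above and Tmed3 with Nmd3 siRNA and all 17 libraries (log2 ratio 0.84, adjusted p = 0.068). Of the interactions, all 320 values stayed uncalled, and of 460 values against scramble siRNA 458 did. Direction was not counted for these uncalled values, and some changed sign. For Tmed3 with Nmd3 siRNA the interaction ran from -0.31 to 0.62, and the whole-cell difference from -0.44 to 0.49. Counts of genes moved more. With all 17 libraries, 2819 (Nmd3), 4540 (Gnl3) and 2353 (scramble) genes were called between fractions, against 9152, 8795 and 9197, and 0 and 0 genes for Nmd3 and Gnl3 siRNA in whole-cell RNA. For the Nmd3 interaction, DESeq2 called 2 genes, totals only 1, no filter 14, the replicate block 1, and leaving out a library 0 to 304, the highest without Nmd3 siRNA whole-cell replicate 3. For the Gnl3 interaction, no filter gave 1. On ER ribosomes, Nmd3 siRNA gave 407 genes and 1 member with no filter, 126 genes with the replicate block, and 23 to 366 genes and 0 to 1 member without a library, against 206 and 0. The fewest were called without 1 of the scramble libraries (25 and 23), and the most without the Nmd3 siRNA replicate 2 that stood apart. Gnl3 siRNA gave 258 with the block and 70 to 299 without a library, against 472. In whole-cell RNA, Nmd3 siRNA gave 115 with no filter and 8 to 1024 without a library, against 29, the highest without Nmd3 siRNA replicate 3, and Gnl3 siRNA 17 to 66, against 142. The cause was not tested. The replicate block changed no call of a member in any comparison. Tmed3, with 82 to 484 counts per kept library the member with fewest, had the widest intervals; counting error was not separated from the spread between its replicates.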

Other observations

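ER ribosome-bound replicate 2 of Nmd3 siRNA differed from its partners for several members. Lman2 measured 267 CPM in it, against 232 and 234 CPM in replicates 1 and 3. Lman1 measured 219 CPM, against 194 and 209 CPM. Tmed5 (93.7 CPM), Tmed7 (122 CPM) and Tmed2 (91.8 CPM) were lowest there among the 3. The Gnl3 mRNA was at 263 CPM in that library, against 164 and 180 CPM in its partners and 256 to 272 CPM in whole-cell RNA with scramble siRNA.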
